A study of Mus musculus with 36 samples.

Results

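The transcription factor genes *Six3*, *Six6*, *Rax*, *Lhx2*, *Hesx1*, *Emx2*, *Fezf2* and *Lhx5* were followed in mouse embryonic stem cells (ESCs) differentiated for 5 days towards anterior neural progenitor cells (antNPCs). They were chosen by their mouse gene symbols as factors of the forebrain and eye field, and each matched 1 of the 54281 genes measured. All 8 passed the filter on low counts, which kept 21601 genes, but *Six6* never exceeded 11 counts in a library. The study asked what loss of the DNA demethylase TET1, or of its catalytic activity alone, does to neural differentiation. RNA was sequenced from 36 libraries in 3 experiments, with 10.1 to 26.3 M counts per library (M, 1e+06).

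The groups were made of male littermate ESC lines of a C57BL/6 and 129S6 first-generation cross. Tet1 KO carried the tm1Koh allele and was represented by lines KO1 and KO15, and WT by lines WT7 and WT34. Both were sampled on days 0, 1, 2 and 4 with 2 libraries each, on day 3 with 4 and on day 5 with 3. Experiment 1 held day 0 and 2 libraries per genotype of days 3 and 5, and experiment 2 held days 1, 2 and 4, the other 2 libraries of day 3 and the remaining library of day 5, which came from KO1 and WT7. Replicates 1 and 2 are lines KO1 and KO15 or WT7 and WT34 of the same experiment, replicates 3 and 4 of day 3 are the same lines in experiment 2, and replicate 3 of day 5 is the experiment 2 library. MUT comprised lines CM59 and CM69, which were edited from WT7 to carry catalytically inactive TET1, and had 2 libraries on day 3 and 2 on day 5 in experiment 3. The line WT70 had 1 library on each of these days in the same experiment, so every comparison of MUT with WT70 rested on a single control library per day. The day 0 libraries were ESCs, which had been cultured with serum, and differentiation started from ESCs depleted of feeders in serum-free medium, with bFGF until day 3, and the labels of these libraries name no pathway inhibitor. The KO and WT lines were derived from blastocysts, and the MUT lines were edited clones. Repeated libraries of a line were not independent animals, so p-values measure the spread between these libraries.

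Vertebrate forebrain identity is laid down in the most anterior neural plate, where Wnt and Nodal signals are kept low by antagonists secreted from the underlying anterior endoderm and mesendoderm. SIX3 represses Wnt genes there and is needed for the rostral forebrain, and RAX, SIX6 and LHX2 act with it in the eye field, the single domain from which both retinas arise. HESX1 is a homeodomain repressor of the anterior neural plate and the pituitary, and its gene is also transcribed in anterior endoderm, so its RNA alone does not tell these tissues apart. EMX2 patterns the dorsal telencephalon, FEZF2 is a zinc finger repressor of early forebrain and later of deep-layer cortical neurons, and LHX5 is a LIM homeodomain factor of the forebrain that promotes expression of secreted Wnt antagonists.

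The promoters are shown because TET1 acts on methylated cytosine in CpG dinucleotides. RefSeq sequences of the 250 bases before the start (GRCm38.p6) matched 6 of the 8 genes with 7 entries. The number of CpGs was 25 and 24 at the *Lhx2* entries, 24 at *Emx2*, 17 at *Six6*, 14 at *Fezf2*, 10 at *Six3* and 2 at *Hesx1*, against a median of 6 over 32851 promoters, of which 29% held 2 or fewer. The G and C share was 34% at *Hesx1* and 72.8% at the first *Lhx2* entry, with a median of 52.4% over all promoters. The poorest and the richest are printed with CpG in capitals, *Hesx1* at chr14:27000112-27000361 on the plus strand and *Lhx2* at chr2:38339031-38339280 on the plus strand.
*Hesx1*: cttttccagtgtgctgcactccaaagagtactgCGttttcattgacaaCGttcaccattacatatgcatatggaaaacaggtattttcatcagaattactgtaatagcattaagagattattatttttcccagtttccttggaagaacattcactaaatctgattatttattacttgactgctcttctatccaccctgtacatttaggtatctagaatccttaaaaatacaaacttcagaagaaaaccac
*Lhx2*: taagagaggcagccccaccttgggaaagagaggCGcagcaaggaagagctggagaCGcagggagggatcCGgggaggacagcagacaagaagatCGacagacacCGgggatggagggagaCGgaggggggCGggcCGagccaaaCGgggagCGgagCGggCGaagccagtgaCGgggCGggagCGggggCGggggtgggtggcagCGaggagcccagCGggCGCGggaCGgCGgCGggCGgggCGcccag
The related homeobox genes *Six3* and *Six6* shared a run of 11 letters, noticed after the sequences had been read, which began 153 bases before the *Six3* start and 71 bases before the *Six6* start and occurred in 0.0335% of all promoters. It contained ATTGG, the reverse complement of CCAAT. Counted on both strands, CCAAT was found 3 times at *Six3*, 2 times at *Six6* and 1 time at *Emx2*, and at least once in 33.8% of promoters. The stretches around the shared run are printed with ATTGG in capitals, from chr17:85620671-85620730 and chr12:72939801-72939860, both on the plus strand.
*Six3*: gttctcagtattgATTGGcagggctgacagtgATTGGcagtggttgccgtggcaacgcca
*Six6*: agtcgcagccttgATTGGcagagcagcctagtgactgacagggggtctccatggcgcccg
TAATTA, a core bound by many homeodomains, and TAATCC were found at none of these 7 entries, against 4.84% and 6.25% of all promoters. CTTTGA was found 1 time, at *Fezf2*, against 13.8%. These letter matches describe the windows and were not tested as binding sites.

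*Tet1* RNA followed the labels. CPM are counts per 1e+06 counts of a library, with the library size scaled between libraries. On day 0 *Tet1* RNA lay between 28.9 and 33.3 CPM in KO and between 1310 and 1432 CPM in WT. On day 5 it lay between 47.2 and 83.1 CPM in KO and between 108 and 182 CPM in WT. It was 158 and 182 CPM in the MUT libraries of day 5 and 170 CPM in WT70. The antNPC label was checked against neural markers. *Sox1* averaged 74.2 CPM in WT on day 5, *Pax6* 20.6 CPM and *Otx2* 103 CPM, and the midbrain markers *En1* and *Wnt1* 40.8 and 37.9 CPM. In KO on day 5 *Sox1* averaged 4.48 CPM and *Pax6* 1.62 CPM. *Otx2* went the other way and averaged 174 CPM in KO, at 128, 119 and 276 CPM in replicates 1, 2 and 3.

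The libraries of experiment 2 on day 5 stood apart from the other libraries of their groups. In the WT library the streak marker *T* was 79.8 CPM against 8.40 and 9.58 CPM in the others, *Cer1*, a secreted antagonist of anterior endoderm, 35.2 CPM against 2.04 and 1.24 CPM, and *Foxa2*, a factor of endoderm and midline, 21.5 CPM against 3.56 and 3.40 CPM. In the KO library *Gsc*, a factor of anterior mesendoderm, was 12.6 CPM against 2.92 and 2.67 CPM, and *Foxa2* 73.7 CPM against 45.9 and 47.4 CPM. Results that rest on these libraries are given with and without them.

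In WT the genes were low until day 3 and rose together on day 4. Between day 3 and day 4, a comparison added after the data had been seen, 7 of 8 rose, with *Six6* the exception, where 2.5% of all genes tested rose. Here and throughout, a gene passed with a Benjamini-Hochberg adjusted p under 0.05 and a log2 fold change beyond 1 in edgeR's quasi-likelihood test. On day 5 the same 7 genes stood above day 3 in WT, where 7.49% of all genes did. The rise of *Hesx1* was 1.89 to 2.91 on the log2 scale in the 7 fits that left out 1 library and 1.02 in experiment 2 alone. Without both day 5 libraries of experiment 2 the *Rax* rise was 1.77 (adjusted p = 0.164) and did not pass.

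**Figure D1:**
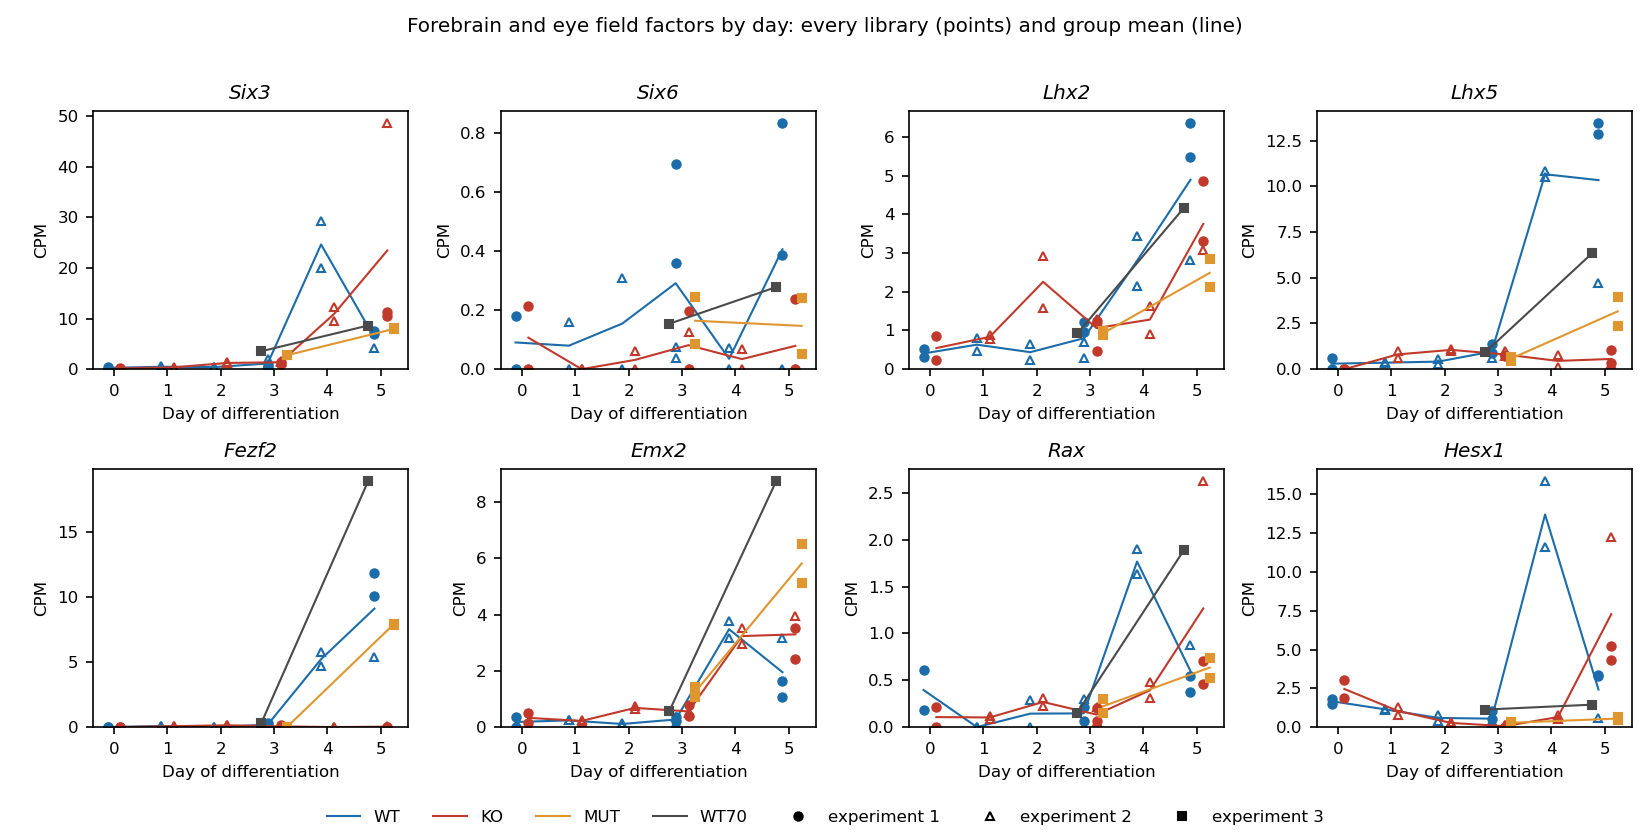
Level of each gene in CPM by day, with 1 point per library and a line through the group means for WT, KO, MUT and WT70, with the experiment shown by the marker and a linear axis of its own for each gene. *Hesx1* and *Six3* peak on day 4 in WT, at means of 13.7 and 24.6 CPM. Their KO means are highest on day 5, which for *Six3*, at 10.5 to 48.5 CPM, rests on the experiment 2 library. *Lhx5* and *Fezf2* stay near the floor in KO.

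*Six3* averaged 0.262 ± 0.23 CPM (SD, n = 2) on day 0, 1.12 ± 0.69 CPM (SD, n = 4) on day 3, 24.6 ± 6.5 CPM (SD, n = 2) on day 4 and 6.19 ± 1.8 CPM (SD, n = 3) on day 5. Its log2 rise was 4.15 (SE 0.43, adjusted p = 1.58e-07) from day 3 to day 4. The WT libraries read 20.0 and 29.2 CPM on day 4 and 6.96, 7.49 and 4.11 CPM on day 5, without overlap, but the log2 difference of -1.34 (SE 0.46) did not pass (adjusted p = 0.0714). It passed in experiment 2 alone (-2.56, adjusted p = 0.00108) and without replicate 2 of day 5 (-1.57, adjusted p = 0.0477).

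*Hesx1* was the only one of these genes that was above 1 CPM in ESCs, at 1.67 ± 0.23 CPM (SD, n = 2) in WT and 2.46 ± 0.86 CPM (SD, n = 2) in KO. It fell by 1.58 (SE 0.63, adjusted p = 0.0438) on the log2 scale to day 3 in WT, where 9.62% of genes fell. This fall no longer passed with the cell line as a block (-0.93, adjusted p = 0.0907), nor without either day 0 library (adjusted p = 0.141 and 0.0939 without replicate 1 and 2) or without replicates 2, 3 or 4 of day 3 (0.0865, 0.0601 and 0.0906). It then rose to 11.6 and 15.8 CPM on day 4, a log2 change of 4.79 (SE 0.60, adjusted p = 2.84e-06). By day 5 it had dropped to 3.33, 3.32 and 0.607 CPM, a log2 change from day 4 of -2.65 (SE 0.65, adjusted p = 0.00969), and 1 of 8 genes fell in this added comparison where 1.44% of all genes did. The fall was -2.41 (adjusted p = 0.078) without replicate 2 of day 4 and -1.54 (adjusted p = 0.102) without replicate 3 of day 5, and did not pass. Within experiment 2, which held all day 4 libraries, the single day 5 library of WT was at 0.607 CPM. *Hesx1* was thus present in ESCs, low on day 3 and highest on day 4.

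*Lhx5* and *Fezf2* did not pass between day 4 and day 5 in WT. *Lhx5* read 10.8 and 10.5 CPM on day 4 and 12.9, 13.4 and 4.72 CPM on day 5, and *Fezf2* 4.68 and 5.77 CPM on day 4 and 10.1, 11.9 and 5.40 CPM on day 5, so the days overlapped for both. The lowest day 5 value of each was in the library of experiment 2. From day 3 to day 5 the log2 rise was 3.25 (SE 0.43) for *Lhx5* and 5.34 (SE 0.40) for *Fezf2*, with adjusted p = 1.32e-06 and 1.39e-09. Both had already passed between day 0 and day 3, where 12.9% of all genes rose, *Lhx5* with a log2 change of 1.70 (SE 0.68, adjusted p = 0.044) and *Fezf2* from 0 counts in 2 libraries to 13 counts in 4, at least 1.66-fold when 3 counts are allowed for day 0 (adjusted p = 0.00626). The early *Lhx5* call was lost without replicate 1 of day 0 (0.93, adjusted p = 0.319) and without replicates 1 or 3 of day 3 (adjusted p = 0.109 and 0.0716), in experiment 1 alone, which held all day 0 libraries (1.57, adjusted p = 0.101), and with no experiment term (1.40, adjusted p = 0.113), and that of *Fezf2* without replicate 2 of day 0 (adjusted p = 0.0764).

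Among the other factors, *Lhx2* read 2.15 and 3.45 CPM on day 4 and 6.36, 5.49 and 2.83 CPM on day 5, a log2 rise from day 3 to day 5 of 2.51 (SE 0.40, adjusted p = 1.37e-05). *Emx2* averaged 3.48 ± 0.44 CPM (SD, n = 2) on day 4 and 1.95 ± 1.1 CPM (SD, n = 3) on day 5, with a rise of 2.80 (SE 0.41, adjusted p = 4.68e-06) from day 3 to day 5. *Rax* averaged 1.77 ± 0.19 CPM (SD, n = 2) on day 4 and 0.599 ± 0.25 CPM (SD, n = 3) on day 5, a rise of 2.31 (SE 0.81, adjusted p = 0.024) from day 3 to day 5 that was not kept with the cell line as a block (2.11, adjusted p = 0.0886), nor without replicate 4 of day 3 (adjusted p = 0.0881) or replicates 2 or 3 of day 5 (0.0539 and 0.0639). The day 3 to day 4 rise of *Lhx2* was not kept without replicate 2 of day 4 (1.69, adjusted p = 0.0758). *Six6* ranged from 0 to 0.833 CPM over all 36 libraries and was at 0 in 14 of them, so no course could be read from it at this depth.

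Levels can be compared between genes only per length, for which the deposited TPM (transcripts per 1e+06 transcripts) were used. On day 4 in WT the order was *Hesx1* at 9.72 TPM, *Six3* at 4.92, *Lhx5* at 1.94, *Emx2* at 1.54, *Fezf2* at 1.26, *Lhx2* at 1.03, *Rax* at 0.709 and *Six6* at 0.00486 TPM. Libraries did not overlap between *Hesx1* and *Six3*, *Six3* and *Lhx5*, or *Rax* and *Six6*, whereas every neighbouring pair from *Lhx5* to *Rax* overlapped. On day 5 in WT *Fezf2* led at 2.00 TPM, followed by *Lhx2* at 1.78, *Lhx5* at 1.72, *Hesx1* at 1.57, *Six3* at 1.10, *Emx2* at 0.867, *Rax* at 0.269 and *Six6* at 0.0518 TPM, and every neighbouring pair overlapped. On day 5 in KO the order was *Hesx1* at 5.05, *Six3* at 4.71, *Emx2* at 1.72 and *Lhx2* at 1.62 TPM. *Rax* followed at 0.362, *Lhx5* at 0.0971, *Six6* at 0.0101 and *Fezf2* at 0.00755 TPM. Every neighbouring pair overlapped except *Lhx5* and *Six6*. *Hesx1* ranged from 2.82 to 8.79 TPM and *Six3* from 1.95 to 10.1 TPM, the highest *Six3* value being that of the experiment 2 library. TPM of *Lhx2* was unsteady at low counts, at 1.01 and 0.0376 TPM in WT on day 2 from 9 and 3 counts, so tests used counts.

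In Tet1 KO the set split. *Lhx5* and *Fezf2* did not take part in the late rise, while *Hesx1* was below WT on day 4 and both *Hesx1* and *Six3* were above it on day 5. In experiment 1 alone these 2 day 5 differences were 0.54 (adjusted p = 0.266) and 0.60 (adjusted p = 0.139) and did not pass. From day 3 to day 5, 5 of 8 genes rose in KO, *Six3*, *Lhx2*, *Emx2*, *Rax* and *Hesx1*, where 11.4% of all genes rose. Their log2 rises were 4.02 (SE 0.37), 1.67 (SE 0.40), 2.62 (SE 0.37), 3.13 (SE 0.74) and 6.54 (SE 0.65). Without both day 5 libraries of experiment 2 the rise of *Rax* was 2.01 (adjusted p = 0.0837). From day 3 to day 4, an added comparison, 3 of 8 rose, *Six3*, *Emx2* and *Hesx1*, where 5.22% did, and *Hesx1* did not pass without replicate 1 of day 4 (2.89, adjusted p = 0.0893). From day 0 to day 3 *Six3* rose in KO by 2.68 (SE 0.84, adjusted p = 0.0112) on the log2 scale (2.05, adjusted p = 0.134, without replicate 1 of day 0) and *Lhx5* from 0 counts in 2 libraries to 59 counts in 4, at least 7.41-fold, where 10.8% of all genes rose. *Hesx1* fell by 4.89 (SE 0.77, adjusted p = 1.05e-05) over the same days, where 10.4% of all genes fell.

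**Figure D2:**
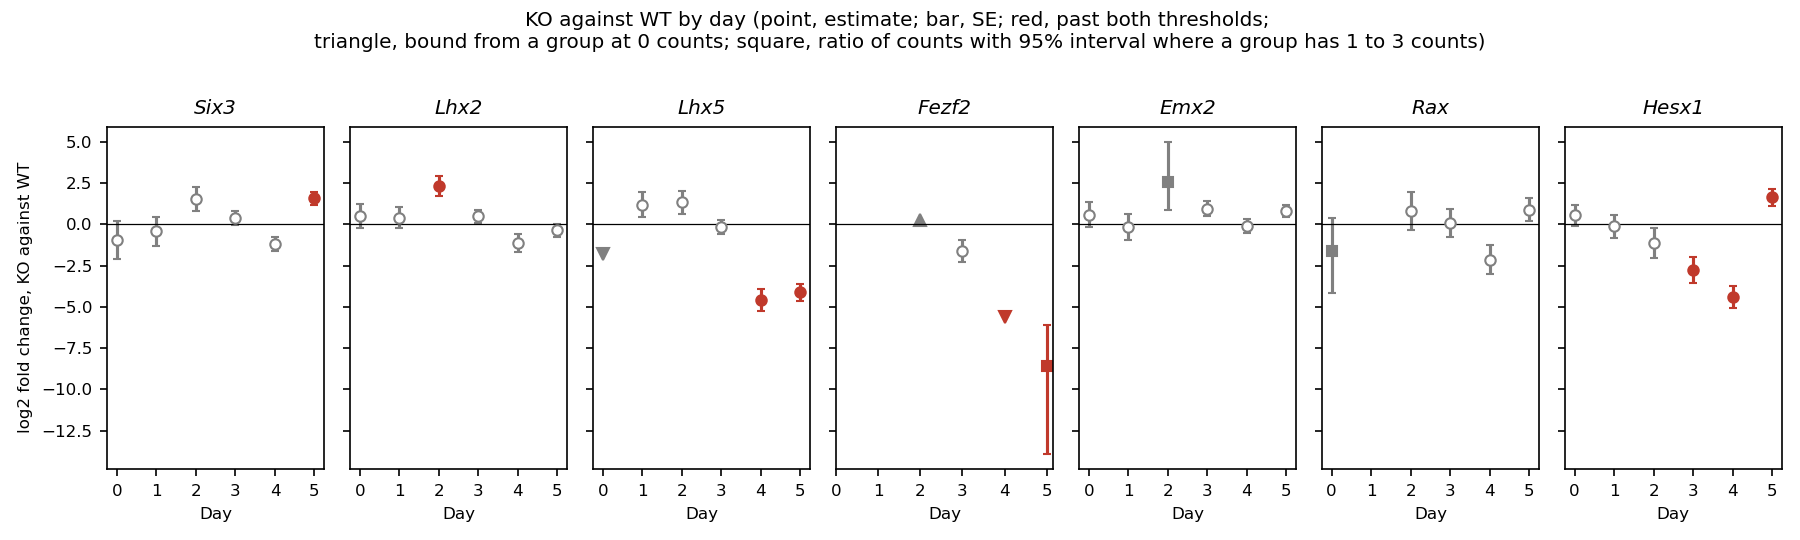
Log2 fold change of KO against WT for each gene but *Six6* on days 0 to 5, with bars of 1 SE, and with triangles for bounds and squares for count ratios with 95% intervals where a group held 3 counts or fewer; red marks genes that passed. *Fezf2* and *Lhx5* lie far below 0 on days 4 and 5, and *Hesx1* crosses from below 0 on day 4 to above 0 on day 5, as does *Six3*, whose day 4 point did not pass.

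Few of these genes passed between KO and WT before day 3. On day 0 none of the 8 passed in edgeR, 1 had an unadjusted p under 0.05 and 1 passed with DESeq2, *Lhx5*, which had 0 counts in the KO libraries and 10 in WT, all in 1 library (it also passed without WT replicate 1, adjusted p = 0.0408), against 0.866% of all genes that passed in either direction. On day 1 none passed with either tool and none had an unadjusted p under 0.05, against 0.634%. On day 2 *Lhx2* was higher in KO, at 1.58 and 2.94 CPM against 0.647 and 0.232 CPM in WT, a log2 difference of 2.32 (SE 0.60, adjusted p = 0.0485), where 0.417% of genes were higher. This call rested on 65 counts in KO and 12 in WT and was lost without KO replicate 2 (1.81, adjusted p = 0.345) and without WT replicate 1 (3.23, adjusted p = 0.104) or 2 (1.78, adjusted p = 0.433). On day 2 *Emx2* had a log2 difference of 2.53 (SE 0.75, adjusted p = 0.0933) and *Six3* of 1.56 (SE 0.73, adjusted p = 0.395), and neither passed.

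On day 3 *Hesx1* was lower in KO, at 0.061 ± 0.071 CPM (SD, n = 4) against 0.544 ± 0.35 CPM (SD, n = 4), from 5 and 34 counts. The KO libraries ranged from 0 to 0.127 CPM and the WT libraries from 0.259 to 1.04 CPM, without overlap. The log2 difference was -2.75 (SE 0.77, adjusted p = 0.0148), and 1 of 8 genes was lower where 1.87% of all genes were. The difference was -2.37 (adjusted p = 0.054) without KO replicate 1 or 2, -2.24 (adjusted p = 0.0788) without WT replicate 1 and -1.22 (adjusted p = 0.366) in experiment 2 alone. *Emx2* differed by 0.96 (SE 0.43, adjusted p = 0.151) and did not pass. *Six3* overlapped on this day, at 1.37 ± 0.24 CPM (SD, n = 4) in KO and 1.12 ± 0.69 CPM (SD, n = 4) in WT.

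On day 4 *Lhx5*, *Fezf2* and *Hesx1* were lower in KO, 3 of 8 genes where 4.28% of all genes were lower, and none was higher. *Lhx5* read 0.137 and 0.767 CPM in KO against 10.8 and 10.5 CPM in WT, a log2 difference of -4.57 (SE 0.64, adjusted p = 1.25e-05). *Fezf2* had 0 counts in both KO libraries and 145 counts in WT, at least 48.3-fold lower when 3 counts are allowed over the KO group (adjusted p = 3.68e-07). *Hesx1* read 0.752 and 0.537 CPM in KO against 11.6 and 15.8 CPM in WT, a log2 difference of -4.39 (SE 0.69, adjusted p = 4.25e-05). The groups did not overlap for any of these genes.

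The eye field genes did not pass on day 4. *Six3* read 12.2 and 9.51 CPM in KO against 20.0 and 29.2 CPM in WT, a log2 difference of -1.18 (SE 0.43, adjusted p = 0.0636). *Rax* read 0.479 and 0.307 CPM against 1.63 and 1.90 CPM, a difference of -2.14 (SE 0.87, adjusted p = 0.103), and *Lhx2* 1.64 and 0.921 CPM against 2.15 and 3.45 CPM, a difference of -1.12 (SE 0.52, adjusted p = 0.166). *Emx2* overlapped, at 2.94 and 3.53 CPM in KO and 3.79 and 3.17 CPM in WT. In bulk RNA, fewer cells that express a gene and less RNA of it per cell cannot be told apart.

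On day 5 the directions were opposite within the set. *Six3* and *Hesx1* were higher in KO, 2 of 8 genes where 5.99% of all genes were higher, and *Lhx5* and *Fezf2* were lower, 2 of 8 where 5.73% were lower. *Lhx5* read 0.332, 1.07 and 0.281 CPM in KO against 12.9, 13.4 and 4.72 CPM in WT, a log2 difference of -4.10 (SE 0.51, adjusted p = 8.14e-07). *Fezf2* had 1 count in the KO group and 367 in WT, a ratio of 0.00262 with a 95% interval from 6.62e-05 to 0.0147 that covers counting error only (adjusted p = 1.92e-09). Every KO library was below every WT library for both genes, and both calls held without the libraries of experiment 2.

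*Six3* read 11.2, 10.5 and 48.5 CPM in KO against 6.96, 7.49 and 4.11 CPM in WT, a log2 difference of 1.59 (SE 0.38, adjusted p = 0.00191). *Hesx1* read 5.25, 4.32 and 12.3 CPM against 3.33, 3.32 and 0.607 CPM, a difference of 1.65 (SE 0.51, adjusted p = 0.0151). The groups did not overlap for either gene, but the KO library of experiment 2 was the highest and the WT library of experiment 2 the lowest for both. Without the KO library the difference was 0.88 (adjusted p = 0.0372) for *Six3* and 0.78 (adjusted p = 0.203) for *Hesx1*, and without the WT library 0.96 (adjusted p = 0.0298) and 0.89 (adjusted p = 0.163). Without both the difference was 0.61 (adjusted p = 0.107) for *Six3* and 0.54 (adjusted p = 0.367) for *Hesx1*, and in experiment 1 alone 0.60 (adjusted p = 0.139) and 0.54 (adjusted p = 0.266). Direction was kept in these fits, and neither gene passed both thresholds in any of them. The KO1 line gave 11.2 CPM of *Six3* in experiment 1 and 48.5 CPM in experiment 2.

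The remaining genes did not pass on day 5. *Emx2* read 3.52, 2.43 and 3.93 CPM in KO against 1.06, 1.62 and 3.17 CPM in WT, a difference of 0.79 (SE 0.36, adjusted p = 0.108), and it passed at 1.27 (adjusted p = 0.0212) without WT replicate 3 and at 1.16 (adjusted p = 0.0393) without both libraries of experiment 2. *Lhx2* read 4.85, 3.32 and 3.09 CPM in KO and 6.36, 5.49 and 2.83 CPM in WT, and *Rax* 0.465, 0.711 and 2.62 CPM against 0.379, 0.541 and 0.877 CPM. Both overlapped between genotypes.

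**Figure D3:**
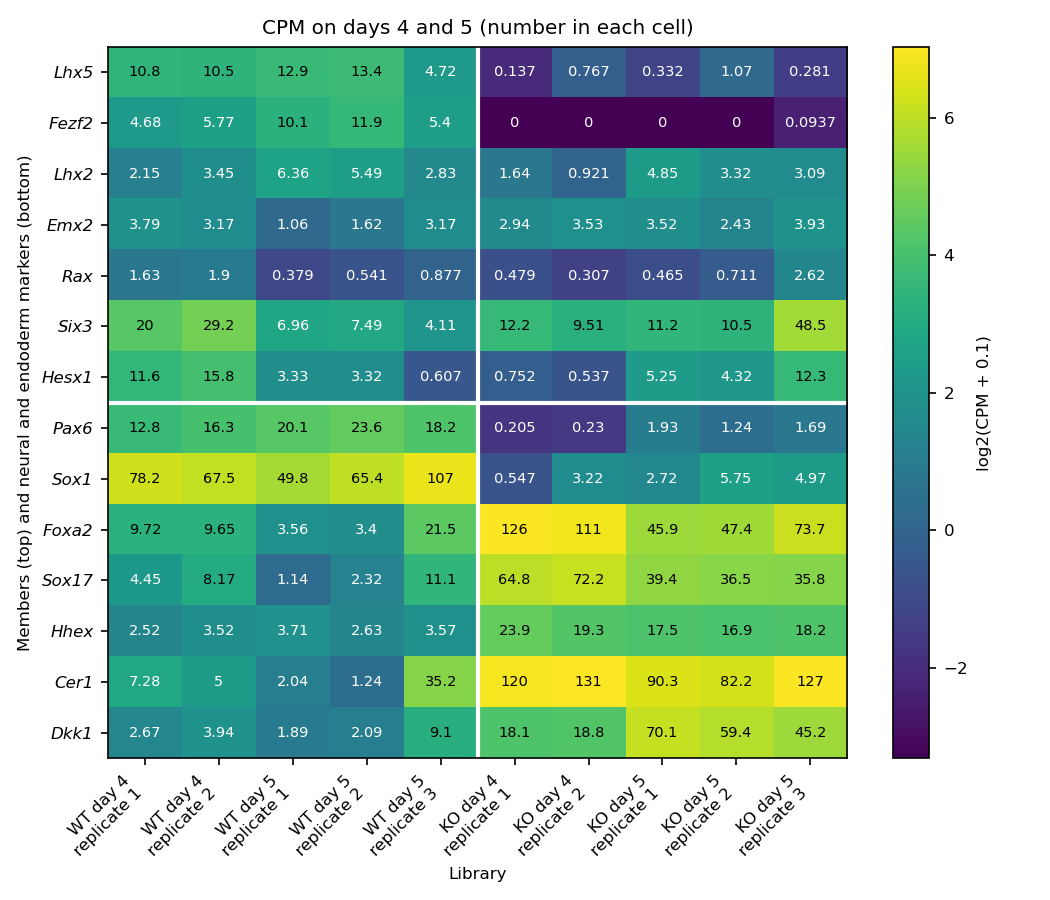
CPM of 7 of the genes (top) and of neural and endoderm markers (bottom) in each WT and KO library of days 4 and 5, printed in each cell and coloured by log2(CPM + 0.1). *Six3* and *Hesx1* change their order between the days, whereas *Lhx5* and *Fezf2* are lower in KO on both. The day 5 differences of *Six3* and *Hesx1* did not pass in experiment 1 alone.

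Whether KO and WT changed differently was tested as a difference of changes. This test cannot show a reversal of order, because a day 4 gap that only closes by day 5 also gives a difference. From day 4 to day 5, an added comparison, *Six3* changed by 1.42 (SE 0.42, adjusted p = 0.0173) and *Hesx1* by 3.38 (SE 0.68, adjusted p = 0.000647) on the log2 scale in KO, 2 of 8 genes where 4.17% of all genes rose. Without the KO library of experiment 2 the rises were 0.19 (adjusted p = 0.836) and 1.56 (adjusted p = 0.148). Without both day 5 libraries of experiment 2 *Hesx1* still passed, whereas *Six3* was at 0.67 (adjusted p = 0.232). The *Six3* rise thus rested on the experiment 2 library, and that of *Hesx1* depended on the fit. Without KO replicate 1 or 2 of day 4 the *Six3* rise was 1.62 or 1.26. The change in KO exceeded that in WT by 2.76 (SE 0.57, adjusted p = 0.00501) for *Six3* and by 6.03 (SE 0.85, adjusted p = 9.31e-05) for *Hesx1*, 2 of 8 where 1.59% of genes had a more positive change in KO. These differences were 2.04 to 3.09 and 5.15 to 6.51 in the 10 fits that left out 1 library. With only the compared libraries that of *Six3* was 2.76 (adjusted p = 0.0683) and did not pass. *Rax* differed by 3.04 (SE 1.12, adjusted p = 0.146) in the main fit and did not pass, but it passed with only the compared libraries (3.01, adjusted p = 0.0366). Day 4 was sampled in experiment 2 alone, and its single day 5 libraries read 48.5 CPM of *Six3* in KO and 4.11 CPM in WT.

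From day 3 to day 5 the change in KO was more positive than in WT for *Hesx1* by 4.40 (SE 0.91, adjusted p = 0.000813), 1 of 8 where 5.18% of all genes were, and more negative for *Lhx5* by -3.95 (SE 0.67, adjusted p = 0.000108) and *Fezf2* by -6.57 (SE 1.26, adjusted p = 0.000643), 2 of 8 where 4.25% were. The *Fezf2* value is a fitted one, since KO held 4 counts on day 3 and 1 on day 5, and in experiment 2 alone it was -4.33 (adjusted p = 0.138). *Six3* differed by 1.20 (SE 0.57, adjusted p = 0.144) and did not pass. For *Six3* the sign of this difference turned between experiments, at -0.29 in experiment 1 alone and 3.50 in experiment 2 alone.

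In MUT the late rise of *Lhx5* and *Fezf2* was present. From day 3 to day 5, 5 of 8 genes rose in MUT, where 8.8% of all genes did. *Fezf2* went from 0 counts in both libraries to 7.94 and 7.89 CPM, at least 116-fold. *Lhx5* went from 0.467 and 0.682 CPM to 2.38 and 3.94 CPM, a log2 change of 2.46 (SE 0.59, adjusted p = 0.00156). *Emx2* rose by 2.23 (SE 0.44), *Six3* by 1.53 (SE 0.46) and *Lhx2* by 1.41 (SE 0.51), with adjusted p = 0.000211, 0.00902 and 0.0305. Without MUT replicate 1 or 2 of day 3 *Six3* was at adjusted p = 0.053 and 0.058, and *Lhx2* was lost without replicate 1 or 2 of day 3 or replicate 1 of day 5 (adjusted p = 0.136, 0.1 and 0.145). *Hesx1* went from 0.341 and 0.212 CPM to 0.477 and 0.625 CPM and *Rax* from 0.146 and 0.297 to 0.741 and 0.529 CPM, and neither passed. In WT70, 4 of 8 rose, where 5.25% of all genes did, *Fezf2* by 5.90 (SE 0.72), *Emx2* by 3.93 (SE 0.69), *Lhx5* by 2.77 (SE 0.80) and *Lhx2* by 2.17 (SE 0.73). With 1 WT70 library per day, its spread was assumed to be that of the other groups.

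None of the 8 genes passed between MUT and WT70 with edgeR or DESeq2. On day 3, 2 genes had an unadjusted p under 0.05, and 0.148% of all genes passed in either direction. These were *Fezf2*, at 0 counts in MUT and 6 in WT70 (adjusted p = 0.144), and *Hesx1*, at 0.341 and 0.212 CPM against 1.13 CPM (adjusted p = 0.746). On day 5, 1 gene had an unadjusted p under 0.05, and 1.87% of all genes passed. It was *Fezf2*, at 7.94 and 7.89 CPM in MUT against 18.9 CPM in WT70, a log2 difference of -1.26 (SE 0.45, adjusted p = 0.148). *Lhx5* read 2.38 and 3.94 CPM against 6.34 CPM, *Hesx1* 0.477 and 0.625 CPM against 1.45 CPM and *Rax* 0.741 and 0.529 CPM against 1.89 CPM. *Emx2* read 5.14 and 6.49 CPM against 8.73 CPM, *Lhx2* 2.86 and 2.12 CPM against 4.17 CPM and *Six3* 8.05 and 7.84 CPM against 8.62 CPM. With a single control library these values do not separate MUT from WT70.

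**Figure D4:**
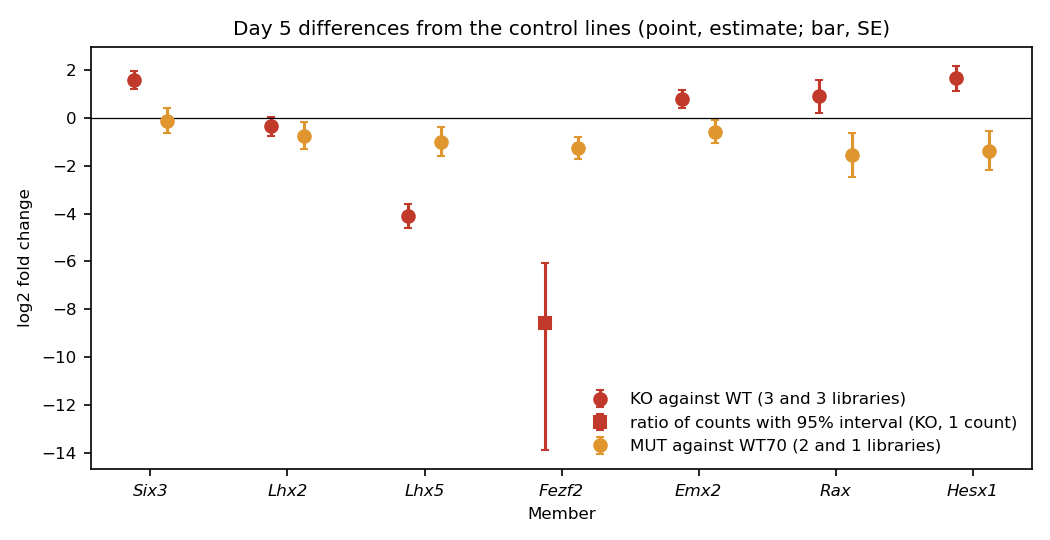
Log2 fold change on day 5 of KO against WT (red) and of MUT against WT70 (orange) for each gene but *Six6*, with bars of 1 SE, or a 95% counting interval for *Fezf2* in KO. *Fezf2* and *Lhx5* lie lower for KO than for MUT, and none of the MUT points passed the test.

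The effect of KO on day 5 was more negative than that of MUT for *Lhx5* by -3.10 (SE 0.83, adjusted p = 0.0256) and for *Fezf2* by -6.93 (SE 0.89, adjusted p = 4.92e-05), 2 of 8 genes where 2.48% of all genes were. *Hesx1* differed by 3.02 (SE 0.95, adjusted p = 0.0623) and *Six3* by 1.70 (SE 0.64, adjusted p = 0.134), and neither passed. *Hesx1* passed with DESeq2 (adjusted p = 0.0438) and without KO replicate 1 or 2 (0.047 and 0.0271). The *Lhx5* difference was lost in some fits that left out 1 library, with adjusted p = 0.0702 without KO replicate 1, 0.114 without MUT replicate 2 and 0.0512 without WT replicate 2 of day 5. On day 3 none of the 8 effects differed between KO and MUT with edgeR or DESeq2, 1 had an unadjusted p under 0.05, and 0.394% of all genes passed in either direction. KO and MUT were profiled in different experiments, each against its own WT lines, so these differences also hold the difference between experiments and control lines.

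Other genes of the forebrain and eye field split as well. Of 28 on a list chosen with earlier results known, 26 were tested, and in WT 13 rose and 1 fell from day 3 to day 5, where 7.49% of all genes rose and 7.99% fell, with a median log2 change of 2.08 against 0.0066 over all genes. Between KO and WT on day 4, 2 were higher, 6 lower and 18 did not pass, where 3.4% of all genes were higher and 4.28% lower, with a median of -0.44. On day 5, 4 were higher, 9 lower and 13 did not pass, where 5.99% of all genes were higher and 5.73% lower, with a median of -0.25 against -0.012 over all genes. *Pax6*, a factor of eye and neural progenitors, was lower by -6.02 on day 4 and -3.71 on day 5, and *Wnt8b*, a Wnt ligand of the dorsal forebrain midline, by -4.74 and -5.38. *Tcf7l2*, an effector of Wnt signalling, was higher by 1.40 and 1.61. Between MUT and WT70 on day 5, 0 were higher and 3 lower, *Pax6* and *Otx2* among them, where 0.611% of all genes were lower, and 23 did not pass. *Pax6* was at a mean of 20.4 CPM in MUT, at 55.6 CPM in the single WT70 library and at a mean of 20.6 CPM in WT. *Otx2* was at 98.5, 204 and 103 CPM in the same groups. MUT was thus near WT for both genes, and WT was profiled in other experiments.

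Relatives of these factors moved in both directions too. Of 22 family paralogs 17 were tested. In KO 4 were higher and 3 lower on day 4, against 3.4% and 4.28% of all genes, and 5 were higher and 2 lower on day 5, against 5.99% and 5.73%. The medians were -0.49 and 0.22. On day 5 the paralog *Six2*, a factor of mesoderm, was higher by 4.23 and the LIM homeodomain gene *Isl1* by 5.91. On day 4 *Fezf1*, the closest relative of *Fezf2*, was lower by -5.28, and *Lhx1*, a close relative of *Lhx5* that acts in anterior mesendoderm, was higher by 3.66.

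Markers of endoderm, streak and mesoderm and of neural cells moved in the same comparisons in which *Six3* and *Hesx1* did. Of 13 anterior endoderm genes, all tested, 8 were higher in KO on day 4 and 11 on day 5 and none was lower, where 3.4% and 5.99% of all genes were higher, with medians of 2.44 and 2.71, and none of the 13 was at 0 in these groups. Of 18 definitive endoderm genes, 14 were higher on day 4 and 16 on day 5 and none was lower, with medians of 2.00 and 3.23. Of 22 streak and mesoderm genes, 17 and 16 were higher and none was lower, with medians of 2.81 and 2.57. Of 21 general neural genes, 2 were higher and 8 lower on day 4 and 0 higher and 15 lower on day 5, where 4.28% and 5.73% of all genes were lower. *Foxa2* and *Sox17* are on both endoderm lists, and *Otx2*, *Shisa2* and *Fzd5* of the anterior one are also genes of the anterior neural plate. The summed level of the 13 anterior endoderm genes was 915 to 1032 CPM in KO against 358 to 399 CPM in WT on day 4, and 818 to 1166 CPM against 250 to 317 CPM on day 5. Definitive endoderm genes summed to 2084 to 2975 CPM in KO and 651 to 669 CPM in WT on day 5, and streak and mesoderm genes to 780.5 to 897 CPM and 59.95 to 264 CPM. Summed levels of general neural genes on day 5 were 600.1 to 700.2 CPM in KO against 1207 to 1504 CPM in WT. On day 4, with the anterior endoderm genes already high in KO, *Hesx1* was at 0.752 and 0.537 CPM there. Of the defining markers *Hhex*, *Cer1* and *Dkk1*, *Cer1* averaged 126 CPM in KO on day 4 and 99.9 CPM on day 5, *Hhex* 21.6 and 17.5 CPM and *Dkk1* 18.4 and 58.2 CPM. Visceral endoderm genes summed to 20.9 to 76.5 CPM in KO and 10.1 to 37.1 CPM in WT on day 5, with *Afp* and *Ttr* at means of 0.0625 and 1.26 CPM in KO. The part of endoderm, mesoderm or neural cells in the levels of *Six3* and *Hesx1* was not tested.

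Over the 36 libraries, the genes closest to each factor were named by Pearson correlation of log2 CPM among 14438 genes, as a description of libraries that share days and lines. *Six3* was most like its antisense gene *Six3os1* (0.928), then *Shisa2* (0.925) and *Greb1l* (0.921). *Six3os1* lies opposite *Six3* on chromosome 17 (GRCm38, *Six3* at 85613608 to 85629302), and whether the counting used strand is not given in the sources used here, so reads of the pair may not be told apart. *Rax* was also most like *Six3os1* (0.858). *Fezf2* was most like *Wnt1* (0.958), *Sox1* (0.937) and *Pdzph1* (0.934), and *Lhx5* like *Fezf2* (0.864), *Sfrp2* (0.845) and *Sox1* (0.844). *Emx2* was most like *Cntnap2* (0.906), *Lhx2* like *Prnp* (0.86) and *Hesx1* like *Myl4* (0.731). Within the set the highest values were *Six3* with *Emx2* at 0.873 and *Lhx5* with *Fezf2* at 0.864, and *Hesx1* reached 0.549 at most, with *Rax*.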

How the data were processed

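RNA of the 36 libraries was prepared with a stranded mRNA kit and read as single ends of 50 bases. The authors trimmed reads with Trim Galore 0.6.4 and quantified GENCODE M23 transcripts (mm10) with Salmon 0.14.1, then summed them per gene with tximport. The deposited expected counts are these estimates, not scaled between libraries, and were rounded before testing; 73.8% were whole. The deposited TPM values were scaled by the authors to transcript length and library, and served for levels between genes and in limma alternatives. The strand setting of the counting is not given in the sources used here. The experiment of a library is its deposited table.

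CPM were counts per 1e+06 counts of a library, with its total over the kept genes multiplied by its TMM scaling factor. Totals over all genes were 10.1 to 26.3 M. Genes were kept by edgeR's filterByExpr (minimum count 10, total 15). The main test was edgeR 4.0.16 (quasi-likelihood, TMM), in 1 fit of all 16 groups plus a term for experiment 2, with 19 residual degrees of freedom. A gene passed at a Benjamini-Hochberg adjusted p under 0.05 over all 21601 genes and a log2 fold change beyond 1. Groups at 0 counts were given 3 counts for bounds, and intervals are exact at 95% for counting error only. DESeq2 1.42.0 and limma 3.58.1 (R 4.3.3) were alternatives, with the other settings given at the end, and the test was checked on simulated data.

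The same lines were sampled on several days within a genotype, but the main fit did not pair days by line. Deviations of the lines correlated between days by -0.0729 to 0.0654 (KO1 and KO15, 21 pairs of days), -0.088 to 0.0658 (WT7 and WT34, 21 pairs) and 0.0322 (CM59 and CM69, 1 pair), and the fit with line as a block was an alternative.

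The genes and the lists were chosen with earlier results of these data known. The text names all 8 genes, up to 3 genes of a list per comparison with the smallest p (a few list genes are not reported here), and the 3 genes most like each factor by correlation of log2 CPM (prior count 2). Comparisons of day 4 with days 3 and 5, and the fits without the day 5 libraries of experiment 2, were added after seeing the data. Markers of neural cells, endoderm and streak given by library were chosen for the cell types the cultures could hold. Positions came from GENCODE M21 (GRCm38).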

Additional observations from a re-analysis of the deposited data

Results flagged for a closer look

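1 of the 16 groups of 4 libraries (each gene on day 3 in KO and WT) held a library that stood apart by Dixon's criterion, where chance gives about 1 in 20. It was *Lhx2* in KO replicate 1 on day 3, at 0.464 CPM, with the others between 1.23 and 1.31 CPM. Without it, the *Lhx2* change from day 0 to day 3 in KO was 1.63 and passed (adjusted p = 0.0167).

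Changes that differed between genotypes by a test of the difference itself were flagged for the following genes. From day 3 to day 5 the change in KO minus that in WT was -3.95 for *Lhx5*, -6.57 for *Fezf2* and 4.40 for *Hesx1* on the log2 scale. From day 4 to day 5 it was 2.76 for *Six3* and 6.03 for *Hesx1*. On day 5 the KO effect minus the MUT effect was -3.10 for *Lhx5* and -6.93 for *Fezf2*.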

How the results depend on the processing

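Of 1339 refitted differences of single genes, 1173 kept their direction and side of the threshold, 129 no longer passed, 34 newly passed and 3 reversed. The reversed ones were *Lhx2* between KO and WT on day 2, at -0.0022 with limma on log2(TPM + 1) with and without the filter, and *Six3* in the KO change minus the WT change from day 3 to day 5, at -0.29 in experiment 1 alone. The cause was not tested. In the fit that took line as a replicate block, the number of genes passing was 2 for WT from day 0 to day 3, 6 for WT from day 3 to day 5 and 5 for MUT, and the block changed no call other than *Hesx1* and *Rax* as given in the report. RLE size factors changed no call of a single gene.

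The number of the 8 genes that passed moved as follows. KO against WT, day 0 (0): 1 with DESeq2 and 1 with no filter on low counts. Day 2 (1): 0 with limma on log2(TPM + 0.1), on log2(TPM + 1) and without its filter, 0 with no experiment term and 0 with only the compared libraries. Day 3 (1): 0 in experiment 2 alone, 0 with limma on log2(TPM + 1) with or without its filter and 0 with only the compared libraries. Day 4 (3): 5 with only the compared libraries. Day 5 (4): 2 in experiment 1 alone and 2 with only the compared libraries. WT from day 0 to day 3 (3): 1 with limma on log2(TPM + 0.1), 0 on log2(TPM + 1) with or without filter and 0 with only the compared libraries. WT from day 3 to day 5 (7): 4 with limma on log2(TPM + 0.1) and 2 on log2(TPM + 1) with or without filter. KO from day 0 to day 3 (3): 1 with limma on log2(TPM + 1) with or without filter. KO from day 3 to day 5 (5): 3 with each of the limma fits. MUT against WT70, day 3 (0): 3 when WT7 and WT34 were the control, *Six3*, *Fezf2* and *Emx2*, 1 with all WT lines as one group and 1 without the filter. Day 5 (0): 3 against WT7 and WT34, *Lhx5*, *Emx2* and *Hesx1*, 2 with all WT lines as one group and 1 with only the compared libraries; these WT lines were in other experiments. MUT from day 3 to day 5 (5): 3 with limma on log2(TPM + 0.1) and 2 on log2(TPM + 1) with or without filter. WT70 (4): 2 with limma on log2(TPM + 1) with or without filter. KO effect minus MUT effect, day 5 (2): 1 with limma on log2(TPM + 0.1), 0 on log2(TPM + 1) with or without filter, 1 with no experiment term and 4 with no filter on low counts. WT from day 3 to day 4 (7): 4, and KO (3): 1, with limma on log2(TPM + 1) with or without filter. WT from day 4 to day 5 (1): 2 in experiment 2 alone, with limma on log2(TPM + 0.1) and log2(TPM + 1), with no experiment term or no filter on low counts, and 3 with only the compared libraries. KO from day 4 to day 5 (2): 1, *Hesx1*, with each limma fit, at a log2 fold change beyond 1.5 and without both day 5 libraries of experiment 2. Leaving out each library in turn gave 0 to 1 on days 0, 2 and 3 and 2 to 4 on day 5 for KO against WT, 1 to 2 for WT from day 0 to day 3, 3 to 5 for MUT from day 3 to day 5, 1 to 3 for the KO effect minus the MUT effect on day 5, and 0 to 2 for WT and for KO from day 4 to day 5. WT70 could not be left out, being 1 library. Depth limits *Six6* throughout and the other genes before day 3, when they held few counts per library.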
